A study of Mus musculus with 10 samples.

Results

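CD4+ T cells from the spleens of scurfy mice that carried an active Foxp3 reporter and received a Foxp3 retrovirus were compared with conventional CD4+ T cells that received an empty virus. The comparison used 4 of the 10 arrays of the study, 2 per group, chosen by their sample labels alone. The other 6 arrays entered the same model and are quoted where they place a result.

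All cells carried the DEREG transgene, in which the Foxp3 promoter drives GFP together with the diphtheria toxin receptor, and the strain field gives a Balb/c background for every array. The 5 groups had 2 arrays each. The group called scurfy Foxp3 held GFP+ cells of DEREG/Scurfy mice, whose own Foxp3 gene is mutated, transduced with a Foxp3 retrovirus. Scurfy mock held the same starting cells with the empty virus, and Treg mock held GFP+ regulatory T cells of DEREG mice with the empty virus. Tconv Foxp3 and Tconv mock held GFP- conventional cells of DEREG mice, with the Foxp3 virus and the empty virus. The labels call GFP+ starting cells epigenetics(+) and GFP- cells epigenetics(-), and the scurfy origin was read from an abbreviation, D_S, in the array descriptions. Before transduction all cells were stimulated through CD3 and CD28, and afterwards cells bearing the vector's NGFR marker were sorted.

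Scurfy Foxp3 and Tconv mock differed in genotype, in starting cell and in vector at once, and these cannot be told apart in this comparison. GFP reports the activity of a Foxp3 promoter and not the presence of Foxp3 protein. The labels give neither the age of the mice nor whether replicate arrays stem from different mice or cultures. The p-values rest on the spread among the arrays alone, which may be technical. With bulk RNA, fewer cells of a type and less RNA per cell cannot be told apart.

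Regulatory T cells (Treg) restrain immune responses, and the transcription factor Foxp3 is required for their function. Scurfy mice lack functional Foxp3 and die of autoimmune inflammation. Treg also carry DNA regions that have lost methylation, among them parts of Foxp3 itself, of Ikzf2 and Ikzf4, which encode the zinc finger factors Helios and Eos, and of Il2ra, Ctla4 and Tnfrsf18, which encode surface receptors. Treg-like cells in tissues use chemokine receptors to reach their sites, and Cxcr6, the receptor for the membrane-bound chemokine Cxcl16, is one of them.

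The sequences just upstream of Foxp3, Cxcr6 and Adam19 are shown because these called genes are, with Ikzf2, the first described. They are RefSeq sequences of build GRCm38.p6, 250 bases upstream of the annotated start, all on the plus strand, at chrX:7579426-7579675, chr9:123806227-123806476 and chr11:46054252-46054501. Capitals mark a match to the forkhead motif TGTTTAC or to the RUNX motif TGTGGT, searched on both strands.
Foxp3: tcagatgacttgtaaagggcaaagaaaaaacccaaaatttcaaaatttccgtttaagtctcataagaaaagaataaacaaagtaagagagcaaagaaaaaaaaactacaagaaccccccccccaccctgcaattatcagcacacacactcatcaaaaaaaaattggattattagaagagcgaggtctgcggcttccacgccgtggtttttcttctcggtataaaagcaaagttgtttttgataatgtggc
Cxcr6: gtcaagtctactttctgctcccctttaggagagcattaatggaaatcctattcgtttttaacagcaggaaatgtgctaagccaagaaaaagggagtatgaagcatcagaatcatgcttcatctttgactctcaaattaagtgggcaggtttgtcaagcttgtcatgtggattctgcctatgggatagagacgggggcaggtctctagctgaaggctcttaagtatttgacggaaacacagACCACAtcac
Adam19: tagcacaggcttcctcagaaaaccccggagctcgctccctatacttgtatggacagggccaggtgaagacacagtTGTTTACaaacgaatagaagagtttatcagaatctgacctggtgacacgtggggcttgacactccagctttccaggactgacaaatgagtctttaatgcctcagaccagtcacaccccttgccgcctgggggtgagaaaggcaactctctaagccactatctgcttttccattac
The Adam19 window held 1 forkhead match, the Cxcr6 window held 1 RUNX match on the minus strand, and the Foxp3 window held neither set of letters. Among all 32851 promoter windows of the same length the forkhead letters occurred in 3.17% and the RUNX letters in 14%. Among 22 windows of the genes with the largest rises, of which 13 of 16 matched the sequence table, the shares were 4.55% and 13.6%. Among 12 windows of the genes with the largest falls, of which 9 of 10 matched, they were 0% and 25%. A match describes letters only.

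Levels are given as the deposited array intensities, which have no unit and are not comparable between genes. Array medians over all probe sets lay between 18.8 and 36.5, so intensities of that size or lower are near background. Differences are scurfy Foxp3 minus Tconv mock on the scale log2(intensity + 16) with the standard error (SE) of the limma fit, n = 2 arrays per group, and a gene is called where its limma p, adjusted by Benjamini-Hochberg over all genes, is under 0.05. The added 16 understates the change of dim genes. Replicate arrays correlated at 0.953 in scurfy Foxp3 and at 0.965 in Tconv mock, and 15.7% of genes in scurfy Foxp3 against 6.1% in Tconv mock lay over 1 log2 unit apart between replicates. Scurfy Foxp3 array 1 correlated more closely with scurfy mock array 2 (0.974) than with its own replicate.

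RNA signal for the Treg factors Foxp3 and Helios was far higher in scurfy Foxp3 cells than in Tconv mock. The Foxp3 gene of scurfy cells is mutated, and its transcript was not told apart from that of the vector. The signal therefore does not show that functional Foxp3 was restored. Foxp3 on the X chromosome had intensities of 948 and 691 in scurfy Foxp3 cells, against 53.9 and 35.9 in Tconv mock. Both scurfy Foxp3 arrays lay above both Tconv mock arrays. The difference was 3.78 ± 0.30 (SE), with a limma adjusted p of 0.0014. Foxp3 read 1188 and 1114 on the scurfy mock arrays, 2130 and 3128 on the Treg mock arrays, and 18 and 18.9 on the Tconv Foxp3 arrays. Hence arrays labelled as Foxp3-transduced were not higher in this probe set than mock arrays of the same starting cell. The difference between scurfy Foxp3 and scurfy mock was -0.50, with a 95% confidence interval of -1.18 to 0.18. Foxp3 was measured by 1 probe set, and whether that probe set can detect the vector's transcript was not tested, so the vector content of the labelled groups has no check in these arrays. Directions below follow the labels. Against Treg mock the difference in Foxp3 was -1.65 ± 0.30, with a limma adjusted p of 0.085.

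Ikzf2 (Helios) on chromosome 1 showed the largest difference of all genes tested. Its intensities were 2940 and 2472 in scurfy Foxp3 cells, against 10.2 and 9.03 in Tconv mock. The groups did not overlap, and the Tconv mock values were near background. The difference was 6.73 ± 0.30 with a limma adjusted p of 2.8e-05, and the 3 probe sets of the gene gave differences between 5.19 and 6.73, all called. On the other arrays Ikzf2 read 3061 and 2303 in scurfy mock, then 2261 and 3341 in Treg mock and 16.9 and 24.4 in Tconv Foxp3. All 6 arrays from GFP+ starting cells were therefore high and all 4 from GFP- cells were low. Between scurfy Foxp3 and Treg mock the difference was -0.03, with a 95% confidence interval of -0.70 to 0.64.

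Cxcr6 and Adam19 were also called higher in scurfy Foxp3 cells. Cxcr6 had intensities of 2111 and 2247 in scurfy Foxp3 cells, against 31.4 and 36.5 in Tconv mock, a difference of 5.46 ± 0.40 (limma adjusted p = 0.00081). Unlike Ikzf2, Cxcr6 was also called higher than in Treg mock, where it read 300 and 202, with a difference of 3.07 ± 0.40 and a limma adjusted p of 0.022. The gene read 3433 and 1485 in scurfy mock, so the scurfy arrays were high with either label. Adam19, a membrane metalloproteinase that sheds surface proteins, read 793 and 386 in scurfy Foxp3 cells, against 1.17 and 49 in Tconv mock. The groups did not overlap, and the difference was 4.09 ± 0.65 (limma adjusted p = 0.026). Adam19 was bright on the other GFP+ arrays too, with 1391 and 803 for scurfy mock, and 621 and 885 for Treg mock. Without scurfy Foxp3 array 1, without scurfy Foxp3 array 2, without either Tconv Foxp3 array or without Tconv mock array 1 its adjusted p was over 0.05, up to 0.126, at differences of 3.13 to 5.05. The calls of Ikzf2, Foxp3 and Cxcr6 held whichever single array was left out. Dropping either array of a group outside this comparison gave the same result, so the 10 fits were not 10 separate checks. Only fits without a scurfy Foxp3 or Tconv mock array removed data of the compared groups.

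**Figure D1:**
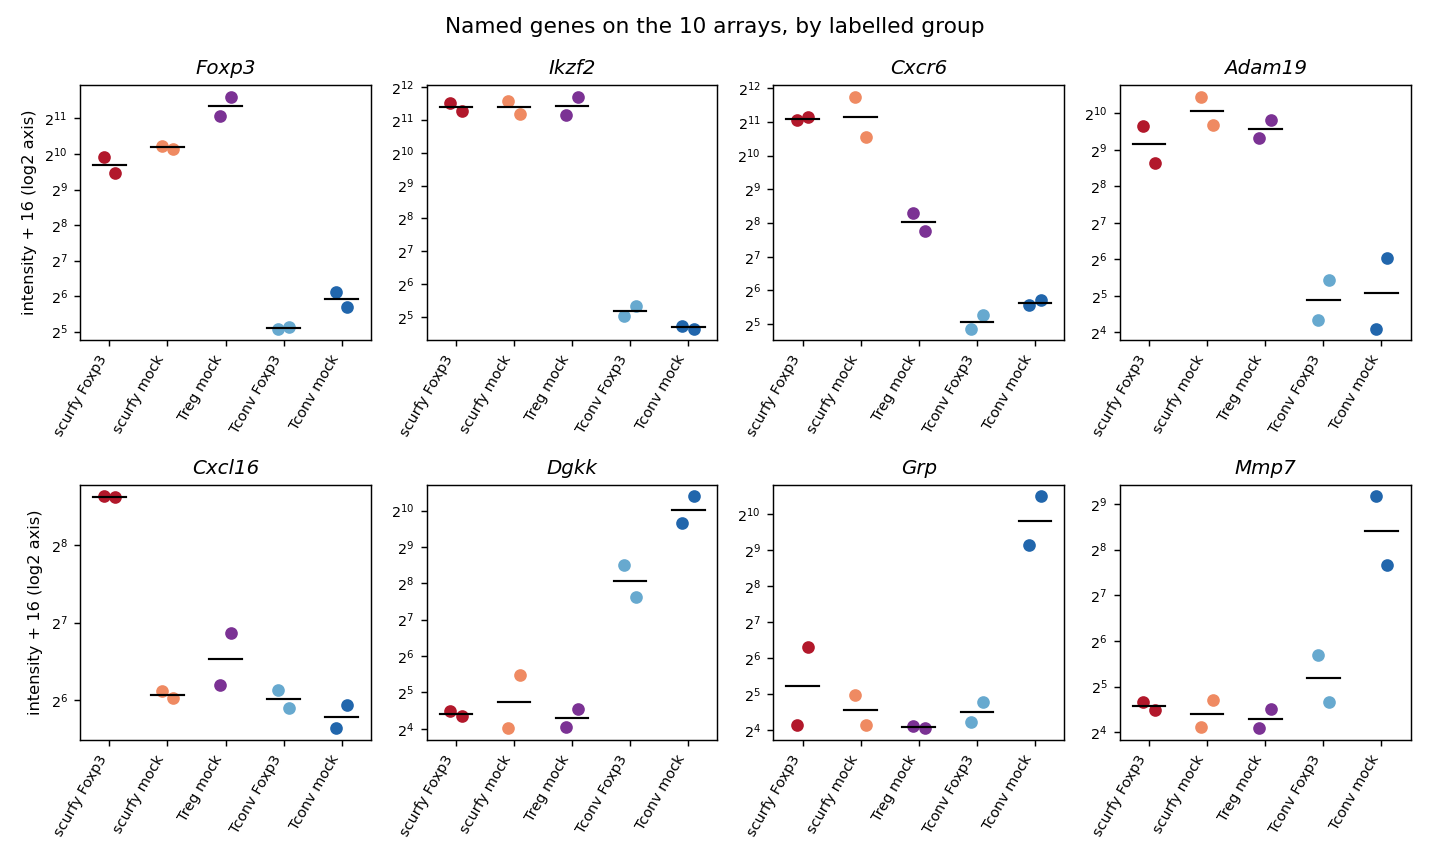
Intensity plus 16 on a log2 axis for 8 named genes, with 1 point per array and the 5 labelled groups along the horizontal axis, scurfy Foxp3 at the left and Tconv mock at the right. Foxp3, Ikzf2, Cxcr6 and Adam19 were high on both scurfy Foxp3 arrays and low on both Tconv mock arrays. Cxcl16 was high in scurfy Foxp3 (380 and 376), while Dgkk, Grp and Mmp7 were high in Tconv mock.

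Across the genome, more genes were called higher than lower in scurfy Foxp3 cells. Of 11323 genes tested, 117 were called (1.03%), of which 104 were higher (0.918%) and 13 lower (0.115%) in scurfy Foxp3. At an unadjusted p under 0.05 there were 1679 of the 11323 genes, and counts within gene lists are to be read against these totals. The median difference over all genes was 0.19 and 65.2% of genes had a positive difference, so gene differences are to be read against that shift. All 117 called genes had non-overlapping groups, as did 45.3% of all genes tested, so non-overlap adds no evidence for a called gene. Among the 117, 88.9% were higher, against 76.6% of 128 called after quantile normalization and 77.9% of 140 called after scaling to a common 75th percentile, which moved the median of all genes to -0.02 and -0.06. The count rested strongly on single arrays. For a group outside the comparison, dropping either of its arrays gave the same result, so such fits repeat each other. Leaving out Tconv mock array 1 gave 7 calls, and leaving out its replicate gave 11. There were 61 calls when scurfy Foxp3 array 1 was dropped, of which 57.4% were higher, at a median over all genes of -0.0067. There were 41 calls when array 2 of that group was dropped, of which 92.7% were higher. Omitting a Tconv Foxp3 array gave 45 with either one, and omitting a scurfy mock array gave 218 with either one. Of 41 named genes that were called, 5 kept the call in all 10 of these fits, namely Ikzf2, Cxcr6, Pxdc1, Foxp3 and Dgkk.

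**Figure D2:**
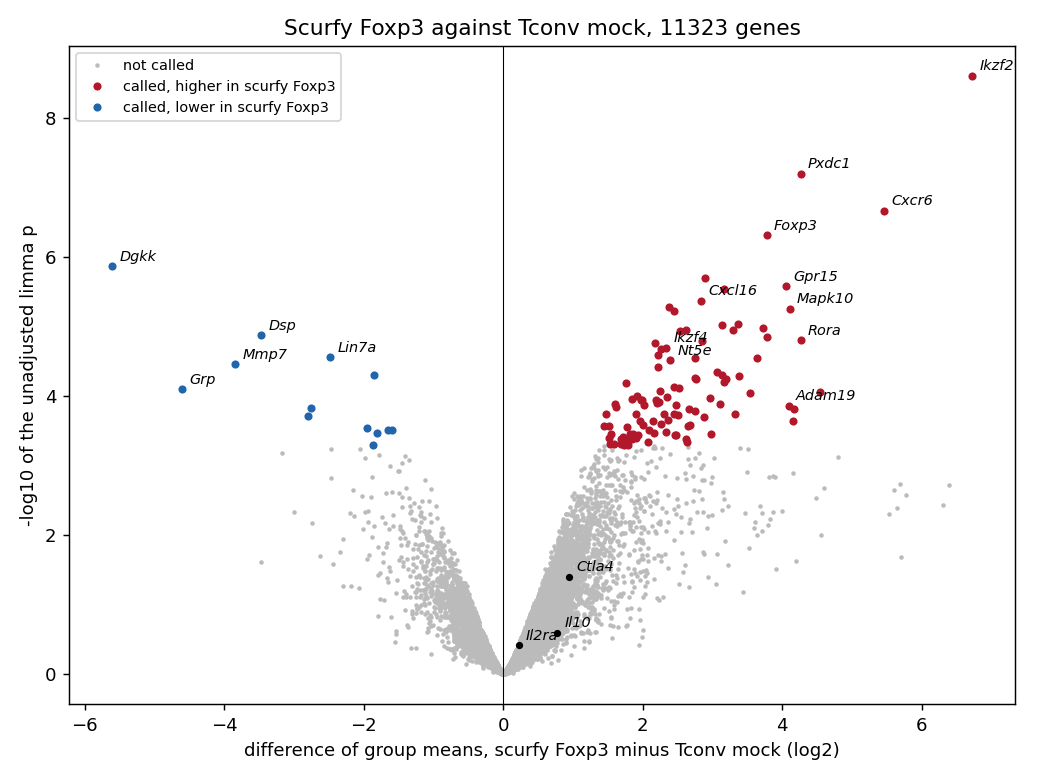
Each point is 1 of 11323 genes, with the difference scurfy Foxp3 minus Tconv mock (log2) on the horizontal axis and -log10 of the unadjusted limma p on the vertical axis. Called genes are coloured, 104 higher and 13 lower. Ikzf2 stands apart at 6.73, and Dgkk is the farthest on the lower side at -5.61.

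Of the 33 Treg transcription factors tested, 5 were called higher and none lower, beside 0.918% and 0.115% of all genes, with a median difference of 0.71 (0.42 without Tconv mock array 2) against 0.19 over all genes. The gene lists used here are selections and do not hold every member of a family. Besides Foxp3 and Ikzf2 they were Rora, Tox2 and Ikzf4. Rora, a nuclear receptor that also marks Th17 and tissue-resident lymphocytes, read 1186 and 515 in scurfy Foxp3 cells, against 17.7 and 35.3 in Tconv mock, a difference of 4.26 ± 0.51 (limma adjusted p = 0.0084). All 7 of its tested probe sets were called, at 2.94 to 4.26. Tox2, a factor with an HMG-box DNA-binding domain, read 345 and 312 in scurfy Foxp3 cells, against 13.6 and 26 in Tconv mock, and differed by 3.29 ± 0.38 (limma adjusted p = 0.0074). Ikzf4 read 3575 and 2881, against 721 and 540, and differed by 2.33 ± 0.29 (limma adjusted p = 0.0095). In all 3 genes both scurfy Foxp3 arrays lay above both Tconv mock arrays, and every called gene had groups that lay apart. Between scurfy Foxp3 and Treg mock Ikzf4 differed by -0.05, with a 95% confidence interval of -0.71 to 0.61. Without either Tconv mock array the adjusted p of each was over 0.05, up to 0.071 for Rora, 0.068 for Tox2 and 0.111 for Ikzf4.

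Several factors used by both effector and regulatory T cells were not called. Gata3, the Th2 factor, read 1894 and 1191 in scurfy Foxp3 cells, against 1512 and 1463 in Tconv mock. Tbx21, the Th1 factor, read 913 and 792, against 762 and 1081. The ranges of the groups overlapped in both genes, with differences of 0.01 (95% confidence interval -1.07 to 1.10) and -0.09 (-1.08 to 0.89). Pparg, a nuclear receptor of fat metabolism and of tissue Treg, read 175 and 177 in scurfy Foxp3 cells, against 320 and 623 in Tconv mock, and was not called (difference -1.27, limma adjusted p = 0.15).

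The 6 listed genes whose demethylation is specific to Treg split evenly in these activated cells. Foxp3, Ikzf2 and Ikzf4 were called higher, and Il2ra, Ctla4 and Tnfrsf18 were not, with a median of 1.64 over the 6. Il2ra, the high-affinity interleukin 2 receptor chain, read 9123 and 8310 in scurfy Foxp3 cells, against 7507 and 7422 in Tconv mock. Both scurfy Foxp3 values were higher, yet the difference was 0.22, with a 95% confidence interval of -0.32 to 0.77. Tnfrsf18 (GITR) read 5195 and 3814, against 5207 and 3106, and the groups overlapped (difference 0.15, 95% confidence interval -0.60 to 0.89). Ctla4, an inhibitory receptor that competes with CD28, read 5865 and 4330, against 3336 and 2031, without overlap (difference 0.95, 95% confidence interval 0.06 to 1.84, limma adjusted p = 0.31).

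Of 33 Treg surface and effector molecules tested, 2 were called higher and none lower, beside 0.918% and 0.115% of all genes. In all, 30 of the 33 differences were positive, beside 65.2% over all genes, and the median was 0.92 (0.60 without Tconv mock array 2). Nt5e, the ectoenzyme CD73 that makes adenosine, read 62 and 124 in scurfy Foxp3 cells, against 3.92 and 3.77 in Tconv mock, a difference of 2.39 ± 0.31 (limma adjusted p = 0.011). Its rise stayed far below natural Treg, which read 838 and 720, and against Treg mock the difference was -2.93 ± 0.31 (limma adjusted p = 0.010). The probe sets of Nt5e did not agree, since the other 2 gave 1.10 and -0.17 and were not called. S100a4, a calcium-binding protein of motile and memory cells, read 683 and 624, against 103 and 79.1 in Tconv mock, a difference of 2.65 ± 0.46 (limma adjusted p = 0.037). Without 1 array of either compared group or of Tconv Foxp3 the adjusted p of S100a4 reached up to 0.217, and without a Tconv mock array that of Nt5e reached up to 0.111.

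Other Treg effector genes were high in scurfy Foxp3 without being called. Klrg1, a receptor of terminally differentiated cells, read 362 and 260 in scurfy Foxp3 cells, against 76.4 and 6.97 in Tconv mock (difference 2.81, limma adjusted p = 0.057). Havcr2 (Tim-3), a co-inhibitory receptor, read 512 and 364, against 30.9 and 92.6 (difference 2.65, limma adjusted p = 0.061). The groups did not overlap in either gene. Il10, the suppressive cytokine, read 3933 and 2983, against 2173 and 1835, also without overlap, with a difference of 0.77 and a 95% confidence interval of -0.66 to 2.21. None of 12 co-inhibitory receptors was called, although 11 differences were positive and 7 had an unadjusted p under 0.05, with a median of 1.30.

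Homing receptors were higher in scurfy Foxp3 cells for Cxcr6 and 3 others. Of 24 chemokine receptors and homing molecules tested, 4 were called higher and none lower, beside 0.918% and 0.115% of all genes. The median of the 24 was 1.11, with 0.62 without Tconv mock array 2 and 1.58 without array 1 of that group. Gpr15, a receptor that directs T cells to the colon, read 263 and 347 in scurfy Foxp3 cells, against 0.652 and 5.9 in Tconv mock, a difference of 4.06 ± 0.40 (limma adjusted p = 0.0041). Cxcr4, the receptor for Cxcl12, read 4686 and 3781, against 662 and 573, a difference of 2.74 ± 0.36 (limma adjusted p = 0.011). Ccr1, an inflammatory chemokine receptor, read 129 and 134, against 15.5 and 26.7, a difference of 2.01 ± 0.35 (limma adjusted p = 0.037). Together with Cxcr6 these 4 genes separated the groups, as did all 117 called genes and 45.3% of all genes tested. Gpr15 lost its call without Tconv mock array 1 (adjusted p = 0.054), Cxcr4 without an array of either compared group (up to 0.111), and Ccr1 without those or either Tconv Foxp3 array (up to 0.22). Not every trafficking gene moved this way: Ccr4 read 1076 and 820 in scurfy Foxp3 cells, against 1374 and 1081 in Tconv mock (difference -0.37, 95% confidence interval -1.19 to 0.45).

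The gene for the ligand of Cxcr6 was also called higher in scurfy Foxp3 cells than in Tconv mock. Cxcl16 read 380 and 376 in scurfy Foxp3 cells, against 33.8 and 45.4 in Tconv mock, a difference of 2.83 ± 0.29 (limma adjusted p = 0.0054). Among the 11 listed chemokines tested it was the 1 gene called, beside 0.918% of all genes called higher. All 11 differences were positive, beside 65.2% over all genes, with a median of 1.83 (1.17 without scurfy Foxp3 array 2). Unlike Cxcr6, Cxcl16 was low on the scurfy mock arrays, at 53.5 and 49.1, and on the Treg mock arrays, at 57.4 and 100. Its call was lost without Tconv mock array 1 (adjusted p = 0.055). Ccl22, a chemokine that attracts Treg through Ccr4, read 2473 and 1764 in scurfy Foxp3 cells, against 2.73 and 71.7 in Tconv mock, but varied between replicates elsewhere, for example 1.57 and 1886 in Treg mock, and was not called (difference 5.70 ± 2.03, limma adjusted p = 0.24). Outside the list, Cx3cl1, a membrane-bound chemokine, was called as well, at 76.2 and 87.4 in scurfy Foxp3 cells, against 4.84 and 5.33 in Tconv mock (difference 2.21 ± 0.30, limma adjusted p = 0.014). Ccl25, also outside the list, differed by -0.24 and was not called.

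Il1r2, Syp, Pxdc1, Mapk10 and Pmaip1, which have unrelated roles, were also called higher in scurfy Foxp3 cells. Il1r2, a decoy receptor that binds interleukin 1 without signalling, read 2824 and 1126 in scurfy Foxp3 cells, against 196 and 176 in Tconv mock, a difference of 3.16 ± 0.45 (limma adjusted p = 0.018). It was the 1 called gene among 13 listed receptors of the interleukin 1, 2 and 7 families, whose median was 0.74 (0.42 without Tconv mock array 2). Syp (synaptophysin, a vesicle membrane protein) read 539 and 522, against 4.45 and 11.1, and differed by 4.54 ± 0.68 (limma adjusted p = 0.022). Pxdc1, a protein with a lipid-binding PX domain, read 398 and 345, against 3.11 and 5.19, and differed by 4.26 ± 0.27 (limma adjusted p = 0.00036). None of these genes overlapped between groups, which held for every called gene and was a condition for naming Syp and Pxdc1. Mapk10, the stress kinase JNK3, read 274 and 263, against 0.79 and 0.219, a difference of 4.11 ± 0.44 (limma adjusted p = 0.0057). Pmaip1, which encodes the death-promoting protein Noxa, read 953 and 1267, against 218 and 286 (difference 2.07 ± 0.39, limma adjusted p = 0.047). It was the 1 called gene of 15 death and survival genes. The counts for the interleukin receptor and death gene lists stand beside 0.918% of all genes called higher. Pxdc1 kept its call in all fits that left out 1 array, with adjusted p of at most 0.011. The others lost theirs when a Tconv mock array was dropped, Il1r2 also when scurfy Foxp3 array 1 was, Syp when either scurfy Foxp3 array was, and Pmaip1 when any scurfy Foxp3 or Tconv Foxp3 array was, with adjusted p of up to 0.128 for Il1r2, 0.131 for Syp, 0.057 for Mapk10 and 0.25 for Pmaip1.

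The glycosyltransferases St6gal1 and Gcnt1 were among the 16 largest rises, as were Tbc1d4, Myo1e and Zcchc18. St6gal1, which adds terminal sialic acid to glycoproteins, read 695 and 1434 in scurfy Foxp3 cells, against 27.9 and 57.3 in Tconv mock, and differed by 4.16 ± 0.67 (limma adjusted p = 0.027). Gcnt1, a branching enzyme that helps build selectin ligands, read 421 and 595, against 24.6 and 33.3, and differed by 3.53 ± 0.53 (limma adjusted p = 0.022). St6gal1 also read 410 and 623 in Tconv Foxp3, where Gcnt1 stayed at 24.3 and 22.7. Tbc1d4, a Rab GTPase activator that controls glucose transporter traffic, differed by 3.63 ± 0.47, at 246 and 375 against 7.81 and 12. Myo1e, a membrane-linked myosin, differed by 3.73 ± 0.43, at 469 and 272 against 12.5 and 11.8, and Zcchc18 by 3.38 ± 0.47, at 268 and 260 against 21 and 3.66. Limma adjusted p-values of the last 3 were 0.011, 0.0074 and 0.016. Each gene's groups lay apart, which was a condition for naming it here. A second tested probe set gave 2.11 for St6gal1, 2.39 for Gcnt1, 1.49 for Tbc1d4 and 1.10 for Myo1e, and none of these was called. All 5 calls ended when a Tconv mock array was dropped. Those of St6gal1, Gcnt1 and Zcchc18 also ended with either scurfy Foxp3 array dropped, that of Tbc1d4 with array 2, and those of St6gal1 and Gcnt1 with either Tconv Foxp3 array. The losses came with adjusted p of up to 0.158 for St6gal1, 0.135 for Gcnt1, 0.092 for Tbc1d4, 0.061 for Myo1e and 0.125 for Zcchc18.

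Metalloproteinases moved in both directions. Of 16 listed genes tested, from the MMP, ADAM and ADAMTS families with the inhibitors Timp1 and Timp2, 3 were called higher and 1 lower. Over all genes, 0.918% were called higher and 0.115% lower. The median of the list was 0.78. Mmp12, which is not in the list and is described further on, was a further call on the higher side. Adam8, a surface sheddase of leukocytes, read 527 and 349 in scurfy Foxp3 cells, against 82.1 and 79.6 in Tconv mock, a difference of 2.20 ± 0.35 (limma adjusted p = 0.025). Mmp13, a collagenase, read 77.9 and 61, against 0.422 and 0.234, a difference of 2.38 ± 0.25 (limma adjusted p = 0.0057). Mmp7 (matrilysin) ran the other way at 9.3 and 6.32, against 559 and 187, a difference of -3.85 ± 0.51 (limma adjusted p = 0.013). The groups lay apart in all 3 genes, as in every called gene. Adam8 lost its call without any 1 array of the compared groups or of Tconv Foxp3 (adjusted p up to 0.153), Mmp13 without either Tconv mock array (up to 0.061) and Mmp7 without either scurfy Foxp3 array or Tconv mock array 1 (up to 0.091).

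The genes lower in scurfy Foxp3 cells were fewer and included a kinase and a neuropeptide. Dgkk, a diacylglycerol kinase on the X chromosome, read 6.24 and 4.35 in scurfy Foxp3 cells, against 785 and 1328 in Tconv mock. The scurfy Foxp3 arrays were near background, and the difference was -5.61 ± 0.50 (limma adjusted p = 0.0031). Scurfy mock and Treg mock were also low, at 0.139 and 28.3 and at 0.548 and 7.45, while Tconv Foxp3 read 343 and 183. Arrays from GFP- starting cells were thus the only high ones. Dgkk kept its call whichever single array was left out. The other 6 diacylglycerol kinases tested were not called, with a median of -0.30 over the 7, which was 0.14 without Tconv mock array 1 and -0.54 without scurfy Foxp3 array 1.

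Grp, the gastrin-releasing peptide, read 1.75 and 62.8 in scurfy Foxp3 cells, against 551 and 1435 in Tconv mock, a difference of -4.60 ± 0.68 (limma adjusted p = 0.021). Here Tconv Foxp3 was low as well, at 2.59 and 11.6, which leaves Tconv mock as the 1 high group. Lin7a, a scaffold protein of cell junctions, was likewise low in Tconv Foxp3 (9.64 and 14), with 12.9 and 0.945 in scurfy Foxp3 cells, against 128 and 89.9 in Tconv mock (difference -2.48 ± 0.32, limma adjusted p = 0.011). Hs3st3b1, a heparan sulfate sulfotransferase, ran differently: it read 21 and 15.3 in scurfy Foxp3 cells, against 98.1 and 115 in Tconv mock (difference -1.85 ± 0.26, limma adjusted p = 0.016), and Tconv Foxp3 read 414 and 470. The other 2 tested probe sets of Hs3st3b1 gave -0.45 and -0.02 and were not called. Dsp (desmoplakin, of desmosomes) differed by -3.47 ± 0.41, Fam71b by -2.80 ± 0.47 and Lgals7 (galectin 7) by -2.75 ± 0.44, with limma adjusted p of 0.0079, 0.031 and 0.026. Spx, a peptide hormone, and Sh3d19, an adaptor protein, differed by -1.95 ± 0.34 and -1.87 ± 0.36 with limma adjusted p of 0.038 and 0.049. Each of these calls was lost when 1 or more single arrays of the compared groups were dropped, those of Fam71b, Spx and Sh3d19 also when a Tconv Foxp3 array was and that of Sh3d19 when a Treg mock array was, with adjusted p of up to 0.141 for Grp, 0.101 for Lin7a, 0.141 for Hs3st3b1, 0.064 for Dsp, 0.177 for Fam71b, 0.164 for Lgals7, 0.237 for Spx and 0.283 for Sh3d19.

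Phgdh was the 1 call in the metabolic gene lists, beside 0.115% of all genes called lower. Phgdh, the entry enzyme of serine synthesis, read 860 and 1021 in scurfy Foxp3 cells, against 3466 and 2548 in Tconv mock, a difference of -1.65 ± 0.29 (limma adjusted p = 0.040, up to 0.248 without 1 array of either compared group or of Tconv Foxp3). The other 3 probe sets of Phgdh gave -0.42, -0.46 and -0.75 and were not called. Among the 18 amino acid, serine and ATF4 stress genes it was the 1 call, and the median was -0.29, against -0.62 with array 1 of Tconv mock left out and -0.09 with its array 2 left out. None of 16 cholesterol synthesis genes was called, but 14 differences were negative, 9 had an unadjusted p under 0.05 and the median was -1.06, against -1.24 after quantile normalization and -1.34 after scaling to a common 75th percentile. Fdps, which makes farnesyl diphosphate, read 426 and 260 in scurfy Foxp3 cells, against 1355 and 1283 in Tconv mock (difference -1.94 ± 0.52, limma adjusted p = 0.13). It read 282 and 519 in Treg mock. Scurfy mock was uneven, at 1723 and 611. None of 17 glycolysis genes and none of 28 cell cycle genes was called, with medians of -0.07 and 0.11, and 1 gene in each list had an unadjusted p under 0.05. The median of the cell cycle genes was -0.01 after quantile normalization. Without scurfy Foxp3 array 1 the medians were -0.31 for glycolysis and -0.14 for the cell cycle, and without scurfy Foxp3 array 2 they were 0.18 and 0.42.

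**Figure D3:**
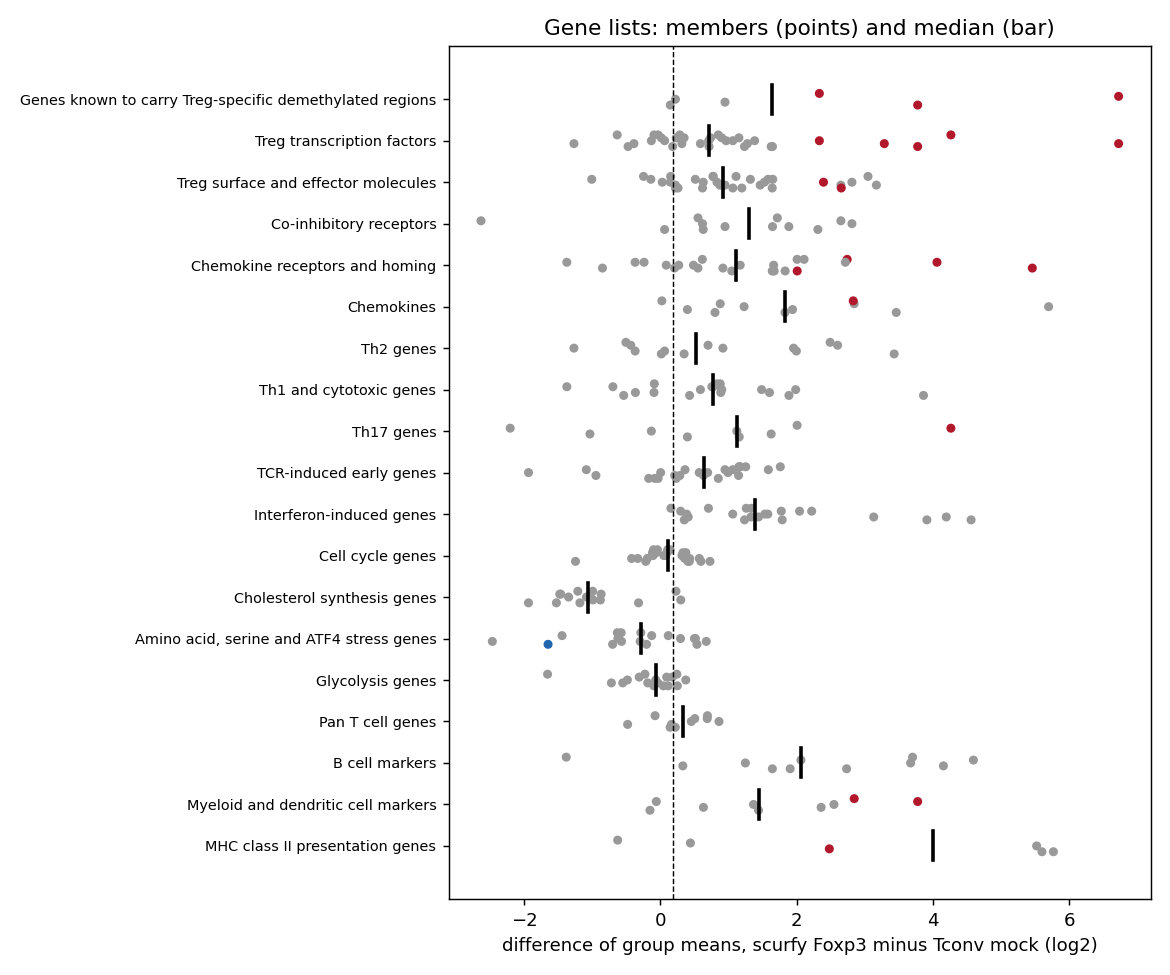
Differences scurfy Foxp3 minus Tconv mock (log2) for the tested members of 19 gene lists, 1 point per gene and a bar at each list's median, with called genes in colour and the dashed line at the median of all genes, 0.19. The medians of the class II (4.00), B cell (2.06) and chemokine (1.83) lists lay farthest to the right and that of cholesterol synthesis (-1.06) farthest to the left.

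No gene of the Th1 and Th2 lists was called, and several cytokines varied greatly within a group. Ifng read 1362 and 1751 in scurfy Foxp3 cells, against 35.2 and 209 in Tconv mock, without overlap (difference 3.86 ± 0.85, limma adjusted p = 0.078). Il4 read 4465 and 3579, against 51.4 and 2037, and Il13 read 5242 and 4049, against 230 and 5773. Both scurfy Foxp3 arrays were high in these Th2 cytokines, while the Tconv mock arrays split into 1 low and 1 high. The differences were 3.43 ± 1.64 and 1.95 ± 1.29, with limma adjusted p of 0.36 and 0.52. Il5 split in the same way, at 1653 and 1139 against 48.2 and 1871 (difference 2.00, limma adjusted p = 0.60). On the Treg mock arrays Il4 read 21.4 and 101 and Il13 read 10.4 and 98.8. Il2, which Treg consume but hardly make, read 7.01 and 25 in scurfy Foxp3 cells, against 11.3 and 101 in Tconv mock, with overlapping groups (difference -0.88, 95% confidence interval -2.83 to 1.07). Il17rb, a receptor for interleukin 25, read 319 and 63.1, against 10.6 and 15.5 (difference 2.49, limma adjusted p = 0.11). Over the lists, 0 of 14 Th2 genes were called (median 0.52, 0.13 without Tconv mock array 1, 3 at an unadjusted p under 0.05) and 0 of 19 Th1 and cytotoxic genes (median 0.78, 6 at an unadjusted p under 0.05). Rora was the 1 call among 9 Th17 genes and Grp among 17 other cytokines, beside 0.918% of all genes called higher and 0.115% lower. Tgfb2, a cytokine of the transforming growth factor beta family outside these lists, was called higher, at 115 and 81.2 in scurfy Foxp3 cells, against 9.1 and 6.96 in Tconv mock (difference 2.23 ± 0.35, limma adjusted p = 0.025). The other tested probe sets of Tgfb2 gave 1.06, 1.33 and 1.75 and were not called.

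The lists of early activation genes and of naive and memory genes held no call. None of 25 T cell receptor-induced early genes was called (median 0.63, 7 at an unadjusted p under 0.05). Cd69, an early activation and retention molecule, read 1118 and 915 in scurfy Foxp3 cells, against 214 and 383 in Tconv mock (difference 1.76, limma adjusted p = 0.058), while Egr3, a factor of T cell anergy, read 70.8 and 175, against 520 and 435 (difference -1.93, limma adjusted p = 0.15). The groups did not overlap in either gene, but the second probe set of Egr3 gave 0.24, so its direction differed between probe sets. None of 16 naive and memory T cell genes was called (median 0.35, 0.08 without scurfy Foxp3 array 1, 2 at an unadjusted p under 0.05). The lowest of these was Dapl1, at 36.8 and 24 in scurfy Foxp3 cells, against 751 and 206 in Tconv mock (difference -3.17, limma adjusted p = 0.055).

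No listed interferon-induced gene was called by limma. All 22 tested differences were positive, beside 65.2% over all genes, with a median of 1.39, and 8 genes had an unadjusted p under 0.05. Rsad2, an antiviral enzyme, read 668 and 220 in scurfy Foxp3 cells, against 8.14 and 3.93 in Tconv mock (difference 4.20 ± 1.54, limma adjusted p = 0.25). Ifit1, an antiviral RNA-binding protein, read 943 and 248, against 27.8 and 9.51 (difference 3.91 ± 1.53, limma adjusted p = 0.28). Both genes were higher in scurfy Foxp3 array 1 than in array 2, and the scurfy mock arrays were farther apart still, at 1802 and 7.23 for Rsad2 and 2136 and 35.9 for Ifit1. The median of the list was 0.86 without scurfy Foxp3 array 1 and 2.05 without scurfy Foxp3 array 2.

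**Figure D4:**
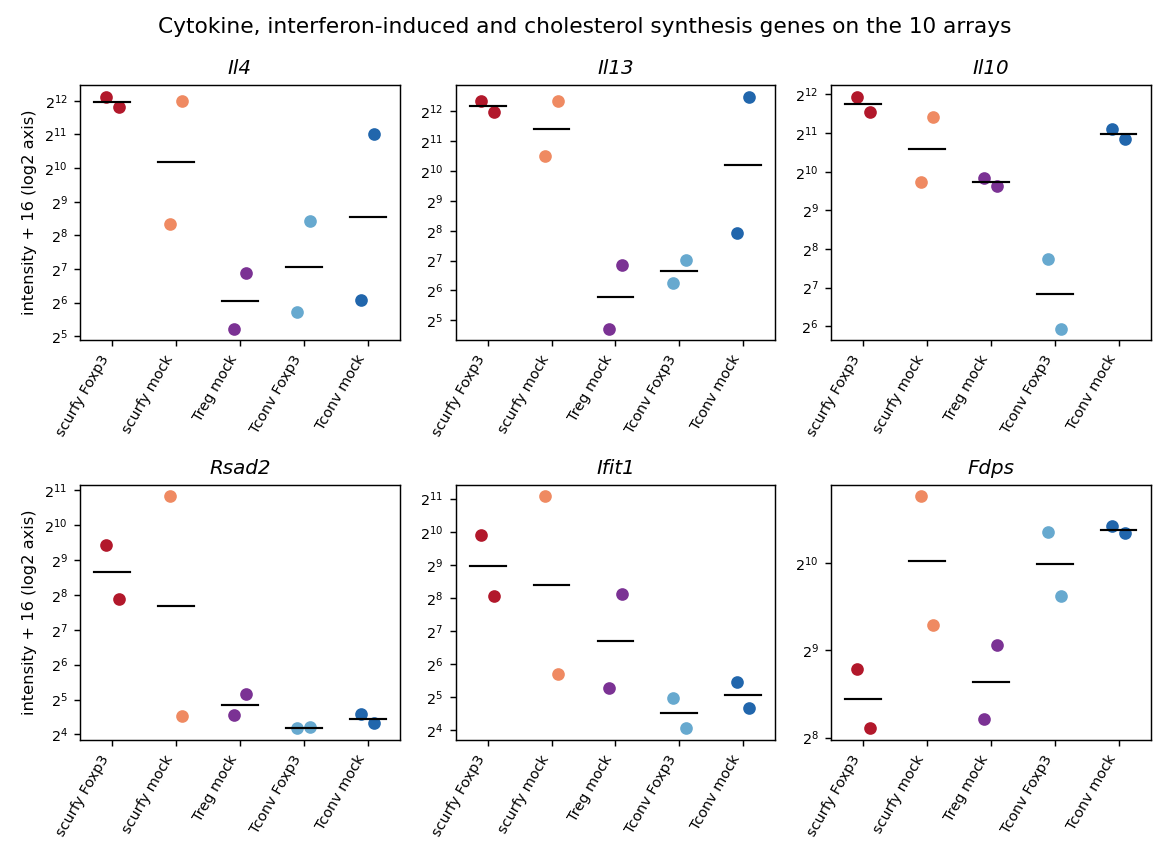
Intensity plus 16 on a log2 axis for Il4, Il13, Il10, Rsad2, Ifit1 and Fdps, 1 point per array, by labelled group from scurfy Foxp3 at the left to Tconv mock at the right. For Il4 and Il13 the scurfy Foxp3 arrays lie together and the Tconv mock arrays lie far apart, and for Rsad2 and Ifit1 the scurfy mock arrays lie far apart.

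Scurfy Foxp3 cells were also set against natural Treg. Of the 11323 genes, 20 were called between scurfy Foxp3 and Treg mock (0.177%), 11 higher (0.0971%) and 9 lower (0.0795%), with 1005 at an unadjusted p under 0.05. This comparison shares the scurfy Foxp3 arrays with the one above, so agreement between them is no second result. Among the genes lower than in Treg, Cpe, a carboxypeptidase that processes peptide hormones, read 178 and 139 in scurfy Foxp3 cells, against 2178 and 1488 in Treg mock (difference -3.39 ± 0.31, limma adjusted p = 0.010). Flicr, a long noncoding RNA next to Foxp3, read 187 and 306, against 1500 and 1243 (difference -2.43 ± 0.30, limma adjusted p = 0.016). Both genes were at the same time called higher than in Tconv mock, where Cpe read 6.75 and 0.391 and Flicr 32.8 and 24, so the scurfy Foxp3 arrays held an intermediate position. Tead1, a transcription factor of the Hippo pathway, read 12.9 and 1.91 in scurfy Foxp3 cells, against 253 and 362 in Treg mock (difference -3.81 ± 0.41, limma adjusted p = 0.010), and was near background in Tconv mock too, at 27.9 and 5.56. The others called lower were Ltf, Fgf13, Nt5e, Gad1, Prickle1 and Qser1.

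The genes higher in scurfy Foxp3 than in Treg mock included Cxcr6, Cxcl16, Pxdc1, Mapk10, Mmp13 and also Cyp11a1, which starts steroid synthesis. Cyp11a1 read 1224 and 1533 in scurfy Foxp3 cells, against 132 and 151 in Treg mock (difference 3.14 ± 0.46, limma adjusted p = 0.044). It read 762 and 631 in Tconv mock, and this difference was not called (0.97, 95% confidence interval -0.08 to 2.01). The remaining 5 of the 11 were 1700061F12Rik, Mmp12, Gnai1, Clec4n and Pawr. The count of 20 was 0 without scurfy Foxp3 array 1, 2 without scurfy Foxp3 array 2, 0 without Treg mock array 1 and 40 without either scurfy mock array.

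The comparison of scurfy Foxp3 with scurfy mock, which shared the starting cells, asks what the Foxp3 label adds. Of 11323 genes, 4 were called, all higher in scurfy Foxp3 (0.0353%), with 480 at an unadjusted p under 0.05. The scurfy mock replicates correlated at 0.921, the lowest of the 5 groups, and 14.0% of genes lay over 1 log2 unit apart between them. With that spread a small count does not show that the other genes were unchanged. No gene was called lower by limma, and 159 of those 480 were lower. Cxcl16 differed by 2.55 ± 0.29, Pxdc1 by 2.39 ± 0.27, Clec4n, a C-type lectin receptor of myeloid cells, by 2.32 and Mmp13 by 2.23 ± 0.25, each with a limma adjusted p of 0.029. Pxdc1 read 398 and 345 in scurfy Foxp3 cells, against 49.7 and 66.7 in scurfy mock. Clec4n read 76.7 and 76.2 in scurfy Foxp3, against 5.16 and 0.301 in scurfy mock. All 4 genes separated the groups. The share of all genes that did so in this comparison was not counted, so the separation adds no evidence. This count was 0 in 9 of the 10 fits that left out 1 array and 50 without scurfy mock array 2. Between groups that shared the Foxp3 label but not the starting cell, 254 genes were called (scurfy Foxp3 against Tconv Foxp3, 2.24%), 185 higher (1.63%) and 69 lower (0.609%), and the count lay between 10 and 371 with 1 array left out.

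Some genes of antigen-presenting cells were called higher in scurfy Foxp3 cells beside the Treg genes. Starting cells had been sorted as CD4+ and the cultured cells as NGFR+. Tyrobp, an adaptor of activating receptors in myeloid and natural killer cells, read 284 and 383 in scurfy Foxp3 cells, against 13.1 and 5.87 in Tconv mock (difference 3.78 ± 0.45, limma adjusted p = 0.0081). Fcer1g, the shared Fc receptor chain, read 127 and 118, against 1.37 and 5.38 (difference 2.85 ± 0.35, limma adjusted p = 0.0084). Cd86, a ligand of CD28 and Ctla4, read 342 and 324, against 1.26 and 6.22 (difference 4.16 ± 0.71, limma adjusted p = 0.033). The other tested probe set of Cd86 gave 2.92 and was not called. In all 3 genes the groups lay apart, as in every called gene. Scurfy mock was lower than scurfy Foxp3, at 13.3 and 39.5 for Tyrobp, 10.7 and 29 for Fcer1g and 21.9 and 32.4 for Cd86. Dropping scurfy Foxp3 array 2 or 1 of the Tconv mock arrays ended all 3 calls. That of Cd86 also ended when scurfy Foxp3 array 1 or a Tconv Foxp3 array was dropped. The adjusted p reached up to 0.082 for Tyrobp, 0.080 for Fcer1g and 0.169 for Cd86.

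Further genes known from macrophages were called in the same direction. Mmp12, the macrophage elastase, read 211 and 117 in scurfy Foxp3 cells, against 1.01 and 0.591 in Tconv mock (difference 3.37 ± 0.38, limma adjusted p = 0.0074). Clec4d, a lectin receptor of myeloid cells, read 205 and 57.8, against 0.248 and 0.591 (difference 2.96 ± 0.45, limma adjusted p = 0.024). Cd40, the costimulatory receptor of B cells and antigen-presenting cells, read 341 and 560, against 64.6 and 51.8 (difference 2.62 ± 0.30, limma adjusted p = 0.0074). The other tested probe sets of Cd40 gave 3.38 and 1.92 and were not called. All were high on both scurfy Foxp3 arrays. Whether these calls held with 1 array left out was not followed. Of 17 myeloid and dendritic cell markers on the array, 9 passed the intensity filter. Among these 9, Tyrobp and Fcer1g were called higher, beside 0.918% of all genes, and 7 differences were positive. An unadjusted p under 0.05 was found for 6 genes, and the median was 1.44. Tyrobp and Fcer1g lay below the array medians in Tconv mock and passed the filter through other arrays. The filter thus favoured positive differences in these tallies, which are no separate evidence. Cd68, a lysosomal protein of macrophages, read 119 and 313 in scurfy Foxp3 cells, against 102 and 35.3 in Tconv mock, and was not called (difference 1.44, limma adjusted p = 0.23). Summed intensities over the 17 were 3234 and 3666 in scurfy Foxp3 and 2819 and 2519 in Tconv mock. The markers Lyz2, Cd14 and Adgre1 (F4/80) lay below 36.5, the highest array median, on the arrays of both groups. Lyz2 read 27.8 and 17.6 in scurfy Foxp3 cells, against 10.3 and 0.725 in Tconv mock, Cd14 read 3.61 and 5.44, against 5.62 and 7.2, and Adgre1 read 7.92 and 8.06, against 21.6 and 3.28.

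Class II genes and several B cell genes were also high on both scurfy Foxp3 arrays. H2-Ab1, a class II chain, read 938 and 905 in scurfy Foxp3 cells, against 161 and 144 in Tconv mock (difference 2.48 ± 0.39, limma adjusted p = 0.026). It was the 1 call among 6 class II presentation genes, beside 0.918% of all genes called higher. That call was lost without 1 array of either compared group or of Tconv Foxp3. With 1 array left out the difference of H2-Ab1 lay between 2.41 and 2.55. H2-Aa read 1114 and 1685, against 8.29 and 10.6, and was not called (difference 5.77 ± 1.41, limma adjusted p = 0.11). Its replicates lay far apart in other groups, for example at 47.6 and 723 in Treg mock. Summed class II intensity was 5890 and 7863 in scurfy Foxp3, against 970 and 841 in Tconv mock. It was 1259 and 3076 in scurfy mock, 627 and 4077 in Treg mock and 1692 and 1975 in Tconv Foxp3. Cd79a, a chain of the B cell receptor, read 302 and 933, against 16.7 and 13.1 (difference 4.15 ± 0.90, limma adjusted p = 0.077), and Pax5, the B cell factor, read 58.1 and 51.3, against 0.684 and 1.11 (difference 2.06, limma adjusted p = 0.064). None of 11 B cell markers was called, yet 10 differences were positive and 9 had an unadjusted p under 0.05. Cd79a and Pax5 lay below the array medians in Tconv mock, so the filter favoured positive differences here too. The summed intensity of the B cell list was 1538 and 5340 in scurfy Foxp3, against 360 and 159 in Tconv mock. That sum was 134 and 554 in scurfy mock, 301 and 1612 in Treg mock and 724 and 763 in Tconv Foxp3, so 1 Treg mock array lay above 1 scurfy Foxp3 array. The part of such cells in the results above was not tested.

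Of 10 mast cell and basophil markers, Kit and Hdc passed the intensity filter, with a median difference of 2.64. Both lay below the array medians in Tconv mock (21.5 and 18.8) and passed only through arrays of other groups. The filter thus favoured a positive median, which is no evidence about these markers. Summed intensity over the 10 was 272 and 269 in scurfy Foxp3, 46 and 251 in Treg mock, and 53.5 and 43.7 in Tconv mock. Kit, the receptor for stem cell factor, read 81.8 and 94.8 in scurfy Foxp3 cells, against 0.447 and 0.576 in Tconv mock, without a call (difference 2.66 ± 0.76, limma adjusted p = 0.15). Hdc, which makes histamine, read 151 and 133 in scurfy Foxp3 cells, against 20.4 and 2.16 in Tconv mock (difference 2.62 ± 0.48, limma adjusted p = 0.045). Its call was lost when an array of any group other than scurfy mock was dropped. The mast cell and basophil markers Fcer1a (0.287 and 0.359, against 3.9 and 1.31) and Mcpt8 (2.69 and 2.2, against 0.714 and 8.05) were near background in both groups. Cd8a read 19.4 and 4.07, against 19 and 19.3, and the red cell gene Alas2 read 23.9 and 2.33, against 10.4 and 6.95. T cell genes were bright in both groups: Cd4 read 4023 and 3810 in scurfy Foxp3 cells, against 2416 and 2422 in Tconv mock, and Cd3g read 3929 and 3471, against 1505 and 2728. Neither was called, and none of 10 pan T cell genes was (median 0.34, 2 at an unadjusted p under 0.05). Of the natural killer markers, 2 passed the filter and neither was called (median 0.88, with the same limit from the filter). The Y-linked gene Eif2s3y was present on all arrays, at 1384 and 869 in scurfy Foxp3 cells, against 1438 and 1316 in Tconv mock.

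**Figure D5:**
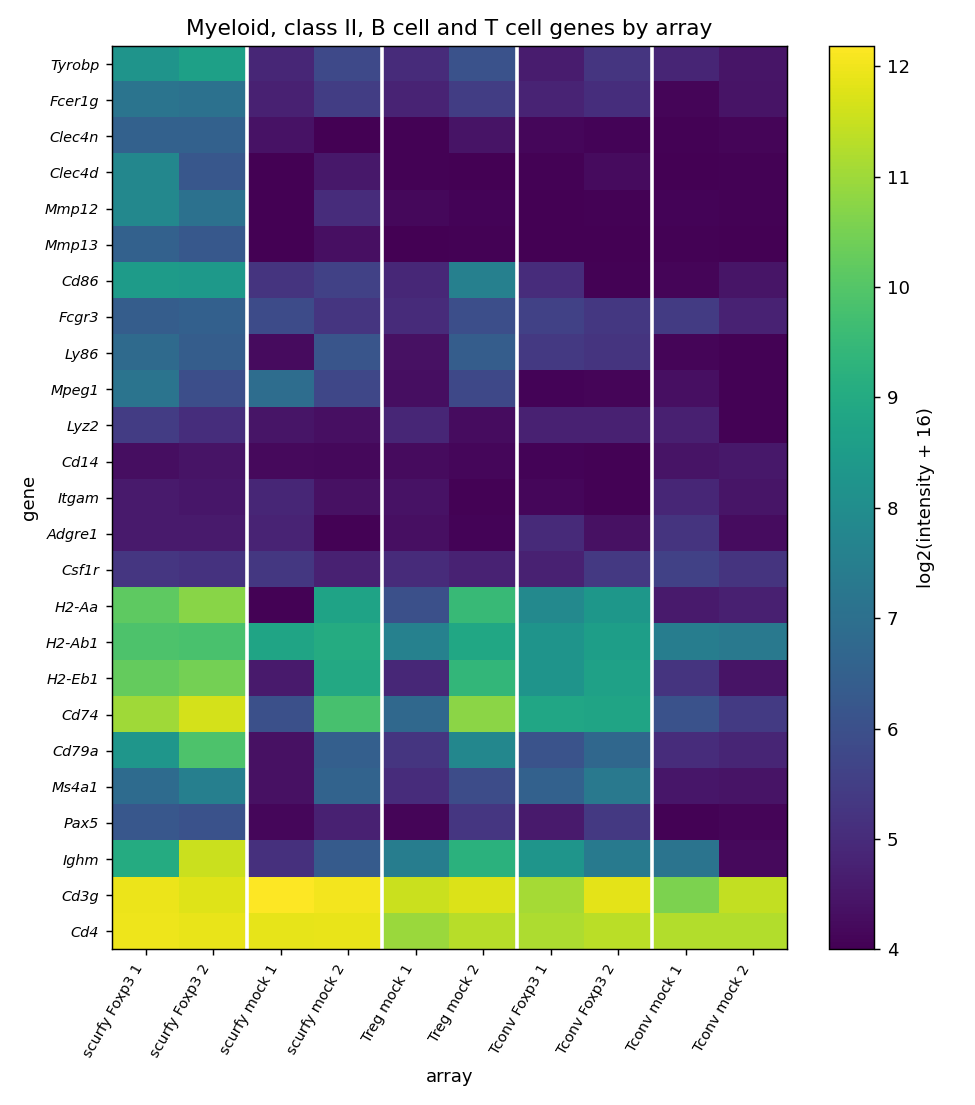
Colour shows log2(intensity + 16) for 25 genes (rows) on the 10 arrays (columns), with white lines between the labelled groups, scurfy Foxp3 at the left and Tconv mock at the right. Tyrobp, Fcer1g, Mmp12, Clec4d, H2-Aa and Cd79a are brightest on the scurfy Foxp3 arrays, Lyz2, Cd14, Itgam and Adgre1 are dark on every array, and Cd3g and Cd4 are bright on every array.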

How the data were processed

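RNA was amplified and labelled with biotin (NuGEN FL-Ovation, per the labels' protocols) and hybridised to 10 Affymetrix Mouse Genome 430 2.0 arrays. The deposited values are a linear intensity per probe set, made with Affymetrix Expression Console per the submitters' processing notes. The sources used here give no version, summary method or scaling, and the number of arrays limits the precision.

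The table held 45101 probe sets, including 64 controls. The platform annotation gave 1 gene symbol to 34958 probe sets, several to 932 and none to 9211, so some listed genes were not analysed here. Of 18193 genes, each read from its brightest probe set on average, 11323 exceeded the median of the array on 2 or more arrays and were tested. Values were taken as log2(intensity + 16) without further normalization. All 10 arrays in 5 groups were fitted with limma 3.58.1 (lmFit, eBayes) in R 4.3.3, leaving 5 residual degrees of freedom plus a prior of 4.10, with two-sided p-values adjusted by Benjamini-Hochberg over all genes. The fit had no term for replicate number, because the replicate differences of scurfy Foxp3 and Tconv mock correlated at -0.06. Scripts were tested on simulated data.

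Named genes were the 16 largest rises and 10 largest falls among called genes with non-overlapping groups, 12 genes always named, and from each of 30 gene lists up to 4 called members or, with none called, the 2 with the smallest p. The lists not otherwise described held CD8, natural killer, mast cell, red blood cell and sex-linked markers and interleukin receptors. Gata3, Tbx21, Ccr4, Ccl22, Ccl25, Cx3cl1, Tgfb2, Cd68, Kit, Il4, Il5, Il13, Rsad2, Ifit1, Cpe, Flicr, Tead1, Cyp11a1, Mmp12, Clec4n, Clec4d, Cd40, H2-Aa, Lyz2, Cd14, Adgre1, Fcer1a, Mcpt8 and the other genes called against Treg or scurfy mock were chosen after their values were seen. The members and lists were chosen with earlier results of these data known. Alternatives were other scalings, added constants, filters, probe set rules and fits, a block for replicate number, and dropping each array in turn.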

Additional observations from a re-analysis of the deposited data

How the results depend on the processing

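Under the alternatives no named gene called in the comparison with Tconv mock changed direction. Where each probe set was fitted on its own, only the probe set with the smallest p was compared, which could hide a reversal. Among 53 called genes with over 1 tested probe set, 1, Nt5e, had probe sets of opposite sign. Some other called genes had probe sets that kept the direction without a call. The 117 calls became 62 with 1 added in place of 16, 52 without the filter and 65 with array weights, of which 50, 51 and 65 were among the 117. The 104 higher calls became 58, 47 and 60 in those 3 settings and the 13 lower ones 4, 5 and 5. Lower calls were 30 after quantile normalization, 31 after scaling to a common 75th percentile and 23 with the trend and robust options. With the replicate block, 94 genes were called, 83 of them among the 117, but the numbers are only labels here; the block gave 0 calls against scurfy mock and 165 against Tconv Foxp3.

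Against Treg mock the 20 calls became 40 under either scaling, 0 with 1 added, 13 with the filter at the 75th percentile, 36 with trend and robust options, 9 with array weights and 39 in a fit on the compared groups. Against scurfy mock the 4 calls became 2 with the filter at the 75th percentile and 0 with 1 added, with each probe set on its own, with trend and robust options, with array weights and in the fit on the compared groups. Against Tconv Foxp3 the 254 calls became 107 with 1 added, 123 without the filter, 118 with array weights and 482 in the fit on the compared groups.

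With 1 array left out, the counts ranged from 7 to 218 for all calls against Tconv mock, 6 to 195 for higher and 1 to 26 for lower ones, 0 to 40 against Treg mock, 0 to 50 against scurfy mock and 10 to 371 against Tconv Foxp3. A lone array was then assumed to vary like the other groups. Without the 2 least correlated arrays, scurfy Foxp3 array 2 and scurfy mock array 1, an alternative chosen after seeing the data, 94 genes were called against Tconv mock (7 lower), 0 against scurfy mock and 135 against Tconv Foxp3. The cause of these shifts was not tested.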
